A study of Mus musculus with 9 samples.

Results

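The genes described here start on the distal part of mouse chromosome 3, between 90 and 160 Mb of genome build GRCm38, and had a mean level of at least 2 TPM (a transcript level scaled for length and library total) over 9 RNA sequencing libraries. Of 1527 genes in the deposited tables that start in this interval, 355 reached that level, and 5 of them (Lef1, Dkk2, Phgdh, Notch2 and the collagen gene Col11a1) were left out, which left 350 members. They are 350 of the 13083 genes of the genome with a mean of at least 2 TPM and of 52609 genes in all. Of the members, 296 start below 140 Mb and 54 at 140 Mb or beyond. The interval and the split at 140 Mb were chosen on the values of IWP2_removed against IWP2 and against control, so those values are given as a description. Counts of called genes in these comparisons are no test of the interval, and nothing about it is read from them.

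The libraries were made from lines labelled as mouse epiblast stem cells, grown on a layer of inactivated embryonic fibroblasts (feeder cells), and the medium of every group held Activin A (20 ng/mL) together with Fgf2 (10 ng/mL). The control line (2 libraries) is labelled with neither the knockout nor the inhibitor. The IWP2 line (2 libraries) was kept in 5 µM IWP2, the IWP2_removed line (2 libraries) had IWP2 taken away after its derivation, and the Dkk1_KO line (3 libraries) is a knockout of Dkk1 without inhibitor. The labels name no more than 1 line per group, so that line and treatment or genotype cannot be told apart. Each library also carries a letter of unstated meaning: B for replicate 1 and C for replicate 2 of control, IWP2 and IWP2_removed, and A, B and C for the 3 Dkk1_KO libraries.

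Epiblast stem cells correspond to the primed epiblast of the post-implantation embryo and are able to form all germ layers. Wnt proteins are lipid-modified by the enzyme Porcupine, which IWP2 inhibits, and are carried to the cell surface by Wls, the Wnt ligand secretion mediator. Dkk1 is a secreted antagonist that keeps Wnt proteins from their Lrp co-receptors. The distal part of mouse chromosome 3 holds Wls itself, the S100 and epidermal differentiation genes, the glutathione S-transferase mu cluster and a cluster of guanylate-binding proteins, among many housekeeping genes of unrelated function.

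Promoter sequence was taken from RefSeq (GRCm38.p6) for 251 members, 213 below and 38 beyond the split. The sequences of 5 members near the split and of Wls are printed to show the DNA just before the start of genes on either side of it. Eif4e and Tspan5 lie before the split and Pdlim5, Kyat3, Gtf2b and Wls past it. Each is the run of 250 bases before the transcription start, 5′ to 3′ on the gene's own strand, with motif matches on either strand in capitals. The motifs were the GC box, spelled GGGCGG, and the CCAAT box, spelled CCAAT. The TATA box was spelled TATAAA and the TCF/LEF core CTTTGAT. Each was searched for separately, so neighbouring matches may share bases.
Eif4e (chr3:138525941-138526190, plus strand): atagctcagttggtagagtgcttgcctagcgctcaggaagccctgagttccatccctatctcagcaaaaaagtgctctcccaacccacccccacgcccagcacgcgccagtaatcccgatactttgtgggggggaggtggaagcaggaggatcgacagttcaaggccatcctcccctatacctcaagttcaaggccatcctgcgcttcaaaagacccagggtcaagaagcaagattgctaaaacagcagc
Tspan5 (chr3:138741958-138742207, plus strand): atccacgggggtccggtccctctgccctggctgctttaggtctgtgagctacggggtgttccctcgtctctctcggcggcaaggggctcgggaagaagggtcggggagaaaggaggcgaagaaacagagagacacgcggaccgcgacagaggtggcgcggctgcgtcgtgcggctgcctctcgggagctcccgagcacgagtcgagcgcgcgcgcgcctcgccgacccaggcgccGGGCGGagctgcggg
Pdlim5 (chr3:142395697-142395946, minus strand): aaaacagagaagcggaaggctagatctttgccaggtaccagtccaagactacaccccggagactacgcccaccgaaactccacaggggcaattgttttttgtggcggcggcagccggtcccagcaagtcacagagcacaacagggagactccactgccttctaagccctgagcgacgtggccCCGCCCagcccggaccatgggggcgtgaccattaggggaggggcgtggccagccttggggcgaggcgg
Kyat3 (chr3:142700798-142701047, plus strand): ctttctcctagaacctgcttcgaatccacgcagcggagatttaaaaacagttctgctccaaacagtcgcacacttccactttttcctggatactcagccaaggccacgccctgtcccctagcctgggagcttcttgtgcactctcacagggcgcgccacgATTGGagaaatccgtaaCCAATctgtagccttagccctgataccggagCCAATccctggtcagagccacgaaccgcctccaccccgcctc
Gtf2b (chr3:142764997-142765246, plus strand): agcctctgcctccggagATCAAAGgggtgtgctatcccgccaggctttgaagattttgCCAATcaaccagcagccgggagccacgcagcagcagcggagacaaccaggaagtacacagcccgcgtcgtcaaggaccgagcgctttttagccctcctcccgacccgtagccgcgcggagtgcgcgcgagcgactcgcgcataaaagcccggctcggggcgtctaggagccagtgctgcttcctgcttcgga
Wls (chr3:159839400-159839649, plus strand): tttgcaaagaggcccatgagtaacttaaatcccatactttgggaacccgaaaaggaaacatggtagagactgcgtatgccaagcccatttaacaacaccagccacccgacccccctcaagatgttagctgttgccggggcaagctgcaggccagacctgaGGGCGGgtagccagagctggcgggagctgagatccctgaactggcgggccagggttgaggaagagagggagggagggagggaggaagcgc

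The printed promoters were unlike each other. Tspan5, before the split, had 33 CpG dinucleotides and a GC content of 70.8%, and Eif4e had 7 CpG dinucleotides, 54.8% GC and none of the motifs. Past the split the CpG count ran from 8 in Wls to 25 in Gtf2b. The 1 TCF/LEF core in these sequences was in Gtf2b, and Kyat3 held 3 CCAAT boxes. Across windows of 300 bases (250 before and 50 after the start) a GC box occurred in 60.1% of members below 140 Mb, in 68.4% of members beyond it and in 35.7% of all 32851 promoter windows. A TCF/LEF core occurred in 5.63%, 2.63% and 3.73%, a CCAAT box in 39.4%, 34.2% and 37.4%, and a TATA box in 10.8%, 10.5% and 13.6%. Members on both sides were richer in CpG dinucleotides than promoters at large, with medians of 20 and 24 per window against 7. All 32851 windows include genes that are silent in these cells, so these shares describe expressed genes as much as genes of this interval.

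Totals ran from 10849490 to 17892751 estimated reads per library. Dkk1 was at 2.36 and 2.64 TPM in control, at 0.19, 0.228 and 0.309 TPM in Dkk1_KO, at 0.945 and 0.093 TPM in IWP2 and at 1.07 and 1.69 TPM in IWP2_removed, so all knockout libraries lay below both control libraries. Dkk1_KO stood apart in its cell markers. Of 6 epiblast markers 1 reached 2 TPM there, with sums of 95.5 to 109 TPM against 522 to 1120 TPM in the other libraries, and 7 trophoblast markers summed to 796 to 853 TPM against 6.09 to 26.1 TPM. The data therefore go against the epiblast label for the Dkk1_KO libraries. All 6 epiblast markers reached 2 TPM in control and in IWP2_removed and 5 did in IWP2. Feeder fibroblast markers (7 genes) summed to 753 to 975 TPM in control, 516 to 723 TPM in IWP2, 776 to 806 TPM in IWP2_removed and 345 to 349 TPM in Dkk1_KO, and their part in the results below was not tested. In such bulk samples fewer cells of a type and less RNA per cell cannot be told apart. The labels do not say whether the replicates were separate cultures, so p-values measure only the spread between these samples. Between replicates the median SD of log2 TPM over members was 0.09 below and 0.08 beyond the split in Dkk1_KO, against 0.18 to 0.38 in the other groups.

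In IWP2_removed, members below 140 Mb stood higher and members beyond it stood lower than in either of the other lines without the knockout. Differences are given as log2(TPM + 0.5), a pseudocount that understates the change of weakly expressed genes. Against IWP2 the median member below 140 Mb was at 146% (median difference 0.54, quartiles 0.30 and 0.81), and 264 of 296 members were above 0. The median member beyond 140 Mb was at 63.8% (median difference -0.65, quartiles -0.84 and -0.35), and 50 of 54 were below 0. Over all 13083 genes the median difference was 0.03. Against control the medians were 0.41 below the split (133%) and -0.84 beyond it (55.8%), with -0.10 over all genes. The 2 comparisons share the IWP2_removed libraries.

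Both letters showed the same direction. Against IWP2 the median below the split was 0.40 in letter B and 0.67 in letter C, and beyond it -0.69 and -0.38. The medians over all genes were -0.04 and 0.11 in the same pairs. Against control the medians were 0.27 and 0.49 below the split and -0.93 and -0.77 beyond it. IWP2_removed was higher than both other lines within both letters for 169 of 296 members below the split (57.1%), against 8.58% of all genes. It was lower in all of these pairs for 41 of 54 members beyond it (75.9%), against 10.5% of all genes. No member beyond the split was higher in all pairs, and 3 members below it were lower in all pairs.

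**Figure D1:**
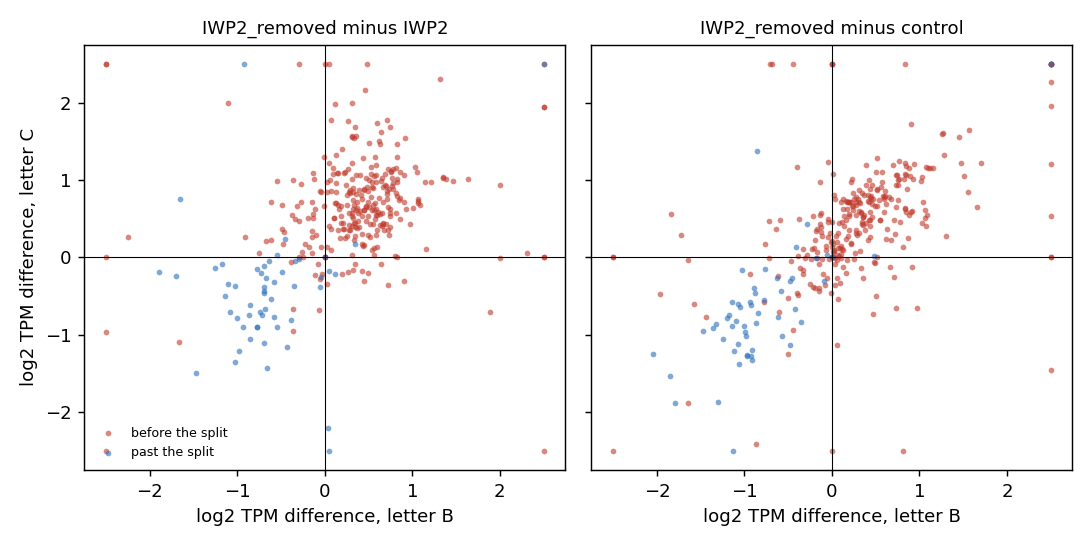
Each point is a member, with its difference in log2(TPM + 0.5) between IWP2_removed and IWP2 (left) or control (right) in letter B on the horizontal axis and in letter C on the vertical axis. Members before the split at 140 Mb (red) gather at the upper right and members past it (blue) at the lower left. Points beyond 2.5 log2 units in either direction (30 members in at least 1 panel) are drawn at the edge.

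Single libraries kept to this order. After subtraction of each library's median over genes outside the interval, the median member below the split stood at 0.50 and 0.53 log2 units above the control mean in the IWP2_removed libraries. In the other 7 libraries it lay between -0.09 and 0.04. Beyond the split the IWP2_removed medians were -0.64 and -0.83. The lowest median of the other libraries was -0.20, in IWP2 replicate 2, and the highest was 0.13, in Dkk1_KO replicate 1. The plot of library medians shows the same values before this subtraction. Both IWP2_removed libraries lay above all 4 IWP2 and control libraries in 130 of the 296 members below the split (43.9%), against 3.76% of all genes. They lay below all 4 in 28 of the 54 members beyond it (51.9%), against 4.76% of all genes. Members with the opposite order numbered 2 below the split (4933434E20Rik and Sprr2a2) and 0 beyond it. The limit of 2 TPM, set on members and on all genes alike, is a mean that includes the IWP2_removed libraries. A weak member can therefore reach it through its values there, and its place in the counts of higher members is partly built in. Rnu1b1 was at 2.60 and 7.58 TPM in IWP2_removed and at most 1.61 TPM in control and IWP2. Gm25890 had the same values and was counted as well.

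**Figure D2:**
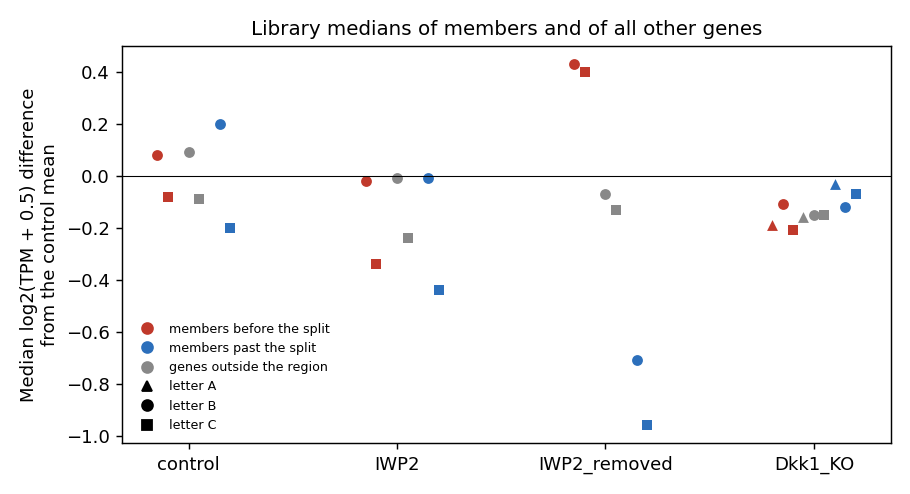
Median difference in log2(TPM + 0.5) from the mean of the 2 control libraries, for each of 9 libraries (symbols by letter), over members before the split (red), members past it (blue) and all other genes (grey). The 2 IWP2_removed libraries lie at 0.43 and 0.40 for members before the split and at -0.71 and -0.96 for members past it.

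Along the chromosome the differences formed 2 blocks with a narrow step between them. In the plot by position, medians of 5 Mb bins below 90 Mb that held at least 5 genes ran close to 0. The first 28 members, from 90 to 94 Mb, had a median difference from the mean of IWP2 and control of -0.01, and 0 of them lay above all 4 libraries. From 94 to 100 Mb, 85 members had a median of 0.70, and 52 lay above all 4. The median was 0.43 from 100 to 120 Mb and 0.51 from 120 to 140 Mb. Past the split it was -0.75 from 140 to 150 Mb (28 genes) and -0.69 from 150 to 160 Mb (26 genes). Before the split the rise was uneven against control. From 100 to 120 Mb the median was 0.56 against IWP2 but 0.23 against control (0.13 in letter B and 0.37 in letter C). From 94 to 100 Mb it was 0.75 against IWP2 and 0.67 against control, and from 120 to 140 Mb 0.51 and 0.46. Medians of 5 Mb against control were 0.12 at 100 to 105 Mb and 0.09 at 120 to 125 Mb. These segments were set after the values were seen.

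**Figure D3:**
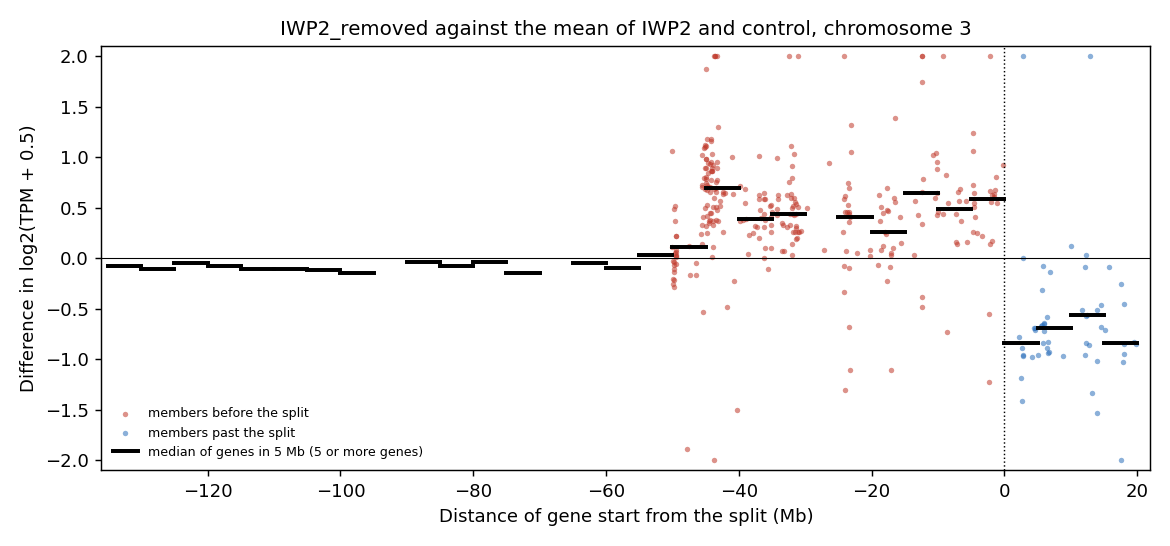
Difference in log2(TPM + 0.5) of IWP2_removed from the mean of IWP2 and control for each member, by the distance of its start from the split at 140 Mb. Black bars are medians of all genes in 5 Mb (at least 5 genes, mean of 2 TPM or more), and 15 members beyond 2 log2 units are drawn at the edge. The bars rise from near 0 at the left to 0.69 for the bin that starts 45 Mb before the split, and fall to -0.84 just past it.

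Named genes give only an approximate place for both edges. S100a10, a plasma membrane partner of annexin A2 that starts at 93.56 Mb, was at 302 and 210 TPM in control, 136 and 121 in IWP2 and 197 and 129 in IWP2_removed. The next expressed genes along the chromosome were Them4, an acyl-CoA thioesterase, and Tdrkh, a Tudor protein of the piRNA pathway at 94.41 Mb. Tdrkh was at 16.1 and 25.2 TPM in control, 17.1 and 35.0 in IWP2 and 36.6 and 57.1 in IWP2_removed. S100a10 was within the range of the other libraries after IWP2 removal, whereas both IWP2_removed values of Tdrkh lay above all 4. Genes beside Tdrkh were mixed. Them4, at 4.51 and 5.69 TPM in IWP2_removed against 2.85 to 5.35 TPM, overlapped the other lines, as did Riiad1 and Celf3. Mrpl9, next to Tdrkh, lay above all 4.

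The step at the split fell between Rap1gds1, at 138.93 Mb, and Pdlim5, at 142.24 Mb. Rap1gds1, a chaperone-like regulator of small GTPases, was at 20.0 and 18.2 TPM in control, 21.7 and 15.1 in IWP2 and 27.2 and 27.7 in IWP2_removed. The predicted gene Gm43678 is the only member between them and was at 3.96 and 3.60 TPM in IWP2_removed against 0.731 to 3.79 TPM in the 4 libraries. Its higher IWP2_removed library was above all 4 and the lower one was not. Pdlim5, a PDZ and LIM protein of the actin cytoskeleton, was at 16.2 and 11.8 TPM in control, 13.5 and 5.58 in IWP2 and 8.28 and 4.58 in IWP2_removed. Within each letter it was lowest in IWP2_removed, but the lines overlapped across letters.

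Near the lower limit on level, Rpl31-ps11 (mean 2.001 TPM), Slc9b1 (2.05) and Tram1l1 (2.057) were just inside, and Mir1956 (1.978), Ovgp1 (1.941) and Nhlh2 (1.924) just outside. At the 90 Mb border Ubap2l, Gm24608 and 4933434E20Rik were the first members, and Hax1, Atp8b2 and Ube2q1 the last genes before them. Differences of these 6 border genes from IWP2 ran from -0.17 to 0.67.

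Members before the split included basic machinery of RNA and protein. Counts in the lists below stand beside 43.9% of all members before the split, and 48.0% of protein-coding ones, above all 4 libraries. No list was tested against these shares. The RNA processing and translation list had 21 members there, with a median difference of 0.69 from IWP2 and 0.61 from control, and 16 of them lay above all 4 libraries. Eif4e, the cap-binding translation factor whose promoter is printed above, was at 566 and 439 TPM in control, 516 and 409 in IWP2 and 751 and 770 in IWP2_removed. Mrps21, of the small mitochondrial ribosomal subunit, was at 208 and 224, 230 and 286, and 506 and 559 TPM in the same order. Tars2, outside that list, the mitochondrial threonyl-tRNA synthetase, was at 24.8 and 19.9, 20.3 and 21.9, and 52.5 and 45.5 TPM. In each of these genes the IWP2_removed libraries stood clear of the other 4, at 158% of their mean for Eif4e, 225% for Mrps21 and 226% for Tars2. Rbm8a, a core protein of the exon junction complex, was at 158% as well (161 and 226 TPM against 95.6 to 147 TPM).

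Among 19 members with a role in transcription and chromatin, 11 lay above all 4 libraries, beside 48.0% of protein-coding members before the split. Their medians were 0.50 from IWP2 and 0.65 from control. Vps72, a subunit of complexes that load the histone variant H2A.Z, was at 44.5 and 42.6 TPM in control, 58.2 and 65.4 in IWP2 and 79.7 and 100 in IWP2_removed. Pogz, a zinc finger protein of chromatin, was at 44.1 and 31.7, 48.3 and 9.77, and 67.7 and 57.9 TPM. Both genes were above the other lines in both libraries, and the size of the Pogz difference rests on the low IWP2 replicate 2, with 0.48 in letter B and 2.51 in letter C.

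All 8 members of the cell cycle, centrosome, DNA repair and apoptosis list before the split lay above all 4 libraries, with medians of 0.63 from IWP2 and 0.65 from control. H2afz, which encodes H2A.Z and has near-identical copies that could share its reads, was at 596 and 462 TPM in control, 583 and 780 in IWP2 and 882 and 998 in IWP2_removed. Anp32e, the chaperone that removes H2A.Z from chromatin, was at 196 and 163, 187 and 141, and 277 and 348 TPM. Psrc1, a microtubule protein of the mitotic spindle, was at 115 and 121, 86.3 and 93.0, and 240 and 186 TPM. The IWP2_removed libraries stood at 155%, 182% and 205% of the mean of the 4 other libraries for these genes.

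Metabolic and proteasome genes followed. Of 18 members of that list 12 lay above all 4 libraries, with medians of 0.64 from IWP2 and 0.52 from control. Psmb4, a beta subunit of the proteasome, was at 549 and 503 TPM in control, 487 and 683 in IWP2 and 980 and 1060 in IWP2_removed. Atp5f1, of the stalk of ATP synthase, was at 280 and 194, 200 and 229, and 338 and 333 TPM. Adh5, the glutathione-dependent formaldehyde dehydrogenase, was at 122 and 124, 112 and 163, and 184 and 209 TPM. None of these 3 overlapped between IWP2_removed and the other lines. The trafficking, cytoskeleton and ubiquitin list had 13 members, 7 of them above all 4, among them the proteasome gene Psma5 (151% of the other libraries), the ubiquitin-conjugating enzyme Ube2d3 (147%) and the calponin Cnn3 (142%).

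Signalling genes before the split differed between the 2 comparisons. The 14 members of that list had a median of 0.59 from IWP2 and 0.20 from control, and 4 lay above all 4 libraries. Nras, a Ras GTPase, was at 168 and 137 TPM in control, 158 and 106 in IWP2 and 209 and 222 in IWP2_removed, above all 4. Gnai3, an inhibitory G protein subunit, was also above all 4, at 71.9 and 73.0 TPM against 39.3 to 63.2 TPM. Rhoc, a small GTPase, was at 94.8 and 110 TPM against 69.1 to 95.7 TPM and overlapped control.

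Gene families before the split behaved unevenly. The 8 expressed genes of the S100 and epidermal differentiation list, of which 7 start between 90 and 94 Mb and Them4 at 94.31 Mb, had medians of 0.26 from IWP2 and -0.01 from control, and none lay above all 4 libraries. Them4, a thioesterase gene next to the complex, is counted in this list, and the cornified envelope genes Sprr2a2 and Sprr2k are not. Sprr2a2 was at 0.259 and 0.586 TPM in IWP2_removed, below all 4 libraries, and differed from IWP2 by -2.67, and Sprr2k differed by -0.16. The size of the Sprr2a2 difference rests on IWP2 replicate 1, at 15.2 TPM against 1.63 TPM in replicate 2. It was -4.37 in letter B and -0.97 in letter C. S100a6, a calcium-binding protein, was at 1000 and 463 TPM in control, 859 and 385 in IWP2 and 1260 and 419 in IWP2_removed. Its letter B library was the higher of the pair in each of these lines. S100a11, of the same family, was at 229 and 122 TPM in IWP2_removed against 129 to 218 TPM. Of 6 glutathione S-transferase mu genes 3 lay above all 4, Gstm5 among them (117 and 160 TPM against 81.3 to 102 TPM). Gstm1 (21.7 and 26.7 TPM against 15.8 to 37.0) and Gstm2 (9.19 and 8.07 TPM against 5.34 to 11.1) did not, and reads of such similar genes may be split between them.

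Among members before the split with a mean of at least 10 TPM and no predicted or pseudogene name, the lowest signed differences from the mean of IWP2 and control were those of Ddit4l, Mir302a, Mir367, Gatad2b and S100a10. Ddit4l, an inhibitor of mTOR signalling at 137.62 Mb, was at 19.9 and 11.3 TPM in control, 22.4 and 3.82 in IWP2 and 13.9 and 4.49 in IWP2_removed, and was lower in letter C in each line. The highest were those of Mir302d, Mir302b, Rpl34, Mir7013 and Mir302c. Mir7013 was at 34.5 and 0 TPM in control, 20.2 and 25.8 in IWP2 and 20.9 and 60.7 in IWP2_removed. Its counts were too low for the edgeR test, and its difference from control was -0.71 in letter B and 6.94 in letter C. TPM is scaled for length, so a short gene can reach 10 TPM on few reads, and its rank here is uncertain. The ribosomal protein gene Rpl34 was at 27.4 and 26.2 TPM in control, 338 and 625 in IWP2 and 388 and 536 in IWP2_removed. IWP2 and IWP2_removed overlapped in it, and reads of Rpl34 are uncertain because of its many near-identical copies. Among protein-coding members, and named after its values were seen, Sema6c, a transmembrane semaphorin, was at 6.62 and 11.2, 15.9 and 7.57, and 19.2 and 26.9 TPM, with both IWP2_removed values above the other 4.

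The Mir302 and Mir367 cluster, microRNAs of primed and embryonic stem cells, stood at both ends of this order although its members lie next to each other at 127.55 Mb. The 4 matched mature 3p sequences (RefSeq, GRCm38.p6, plus strand of chromosome 3) show which of them share a seed, bases 2 to 8, in capitals.
miR-302b-3p (chr3:127545275-127545297): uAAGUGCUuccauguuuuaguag
miR-302c-3p (chr3:127545406-127545427): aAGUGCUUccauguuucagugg
miR-302d-3p (chr3:127545665-127545687): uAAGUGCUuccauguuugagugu
miR-367-3p (chr3:127545779-127545800): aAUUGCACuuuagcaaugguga
miR-302b-3p and miR-302d-3p share a seed. miR-302c-3p lacks their leading base, which shifts its seed along the same letters, and the seed of miR-367-3p is another. Mir302d was at 0 and 21.0 TPM in control, 10.4 and 97.2 in IWP2 and 42.9 and 187 in IWP2_removed. Mir302a was at 35.0 and 51.7, 102 and 218, and 31.8 and 103 TPM. Each member of the cluster was higher in IWP2_removed replicate 2 than in replicate 1, and in Mir302a, Mir302b, Mir302c, Mir302d and Mir367 the lines overlapped. These values come from reads assigned to the annotated hairpins in libraries of polyadenylated RNA. They are levels neither of the mature microRNAs nor of the hairpins as separate RNAs.

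Past the split, members that act on RNA included Srsf11, Zranb2 and Fubp1, which bind pre-mRNA or DNA, Rpf1 and Znhit6 of ribosome and snoRNP assembly, and Tyw3 of tRNA modification. Their medians were -0.56 from IWP2 and -0.52 from control, and 5 of the 6 lay below all 4 libraries. This count and those of the lists below stand beside 51.9% of all members past the split and 61.4% of protein-coding ones. No list was tested against these shares. Rpf1 was at 38.2 and 25.3 TPM in control, 29.0 and 43.9 in IWP2 and at most 18.2 in IWP2_removed. Srsf11 was at 148 and 130, 161 and 104, and 98.8 and 96.4 TPM, a smaller gap. Zranb2 at 43.9 and 45.4 TPM against 46.2 to 60.4 TPM was just below the others. Fubp1, the exception, was at 79.7 and 99.2 TPM against 73.7 to 117 TPM. Tyw3 overlaps the start of Cryz on the other strand, and their reads may be shared, since whether the counting used strand is not stated here.

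The 3 transcription members past the split were Gtf2b, Lmo4 and Zzz3. Gtf2b, the general initiation factor TFIIB, was at 25.3 and 20.4 TPM in control, 21.2 and 24.0 in IWP2 and 11.5 and 11.3 in IWP2_removed, or 50.2% of the 4 other libraries. Lmo4, a LIM-only cofactor, was at 48.7 and 37.0, 43.4 and 57.5, and 21.8 and 24.6 TPM, or 49.7%. Zzz3, a histone reader of the ATAC complex, was at 18.5 and 10.5, 19.4 and 16.1, and 13.1 and 8.43 TPM. Gtf2b and Lmo4 lay clear of the other lines, and Zzz3 overlapped control.

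Receptors and transducers past the split comprised 7 members, with medians of -0.73 from IWP2 and -1.12 from control, and 4 of them lay below all 4 libraries. Wls, the carrier of Wnt proteins, was at 95.8 and 70.3 TPM in control, 75.0 and 41.9 in IWP2 and 48.8 and 28.7 in IWP2_removed. Letter C was the lower in each of these lines, and within a letter IWP2_removed was the lowest, with differences of -0.62 and -0.54 from IWP2 and -0.97 and -1.28 from control. Across letters the IWP2_removed and IWP2 libraries overlapped.

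Gng5, a G protein gamma subunit, was at 237 and 182 TPM in control, 199 and 262 in IWP2 and 124 and 122 in IWP2_removed. Pkn2, a serine/threonine protein kinase, was at 23.7 and 17.2, 18.3 and 11.1, and 8.22 and 8.71 TPM. Adgrl2, the adhesion receptor latrophilin 2, was at 52.7 and 32.5, 37.3 and 29.2, and 20.2 and 17.1 TPM. In all 3, and in Bcl10, an adaptor of NF-kappaB signalling (9.25 and 8.98 TPM against at most 18.0 TPM), the IWP2_removed libraries were below the rest. Prkacb, a catalytic subunit of protein kinase A, was at 23.8 and 20.2 TPM in control, 23.1 and 12.0 in IWP2 and 12.5 and 7.70 in IWP2_removed, which overlapped IWP2 replicate 2. Ccn1, a matricellular protein, followed the letter, at 211 and 72.5, 140 and 23.4, and 101 and 27.6 TPM.

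**Figure D4:**
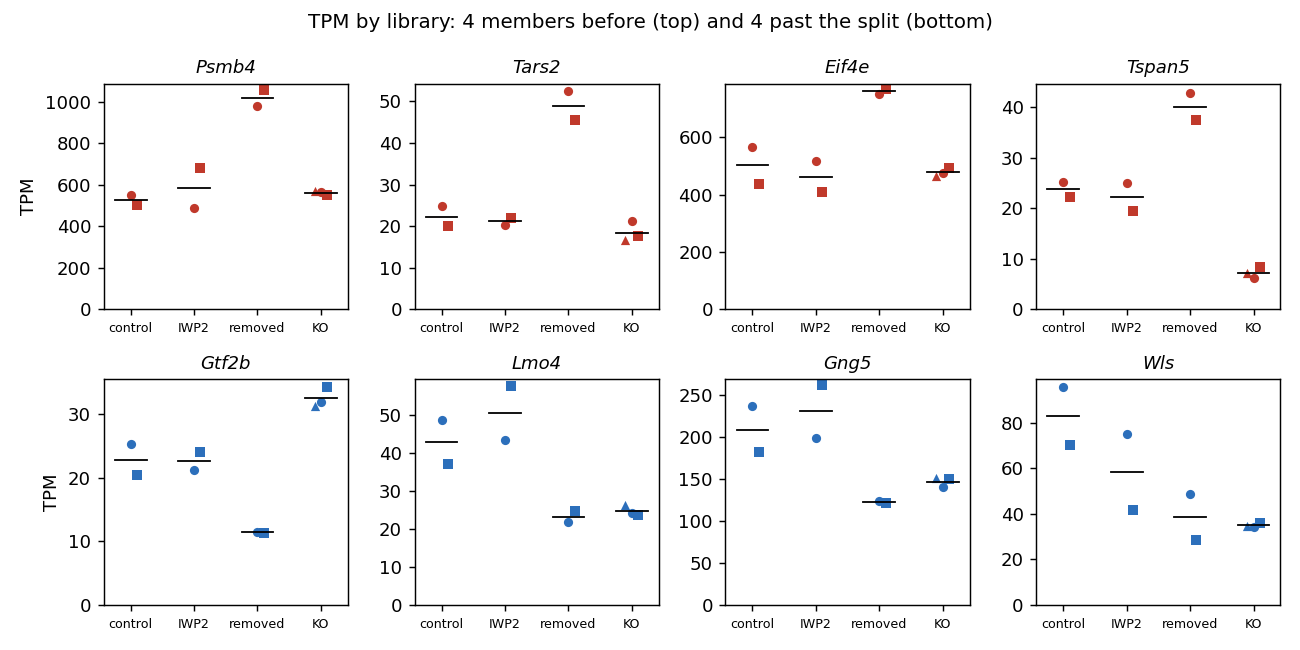
TPM of 8 members in every library (symbols by letter, circle B, square C, triangle A), with the group mean as a bar. In the upper row (before the split) the 2 IWP2_removed libraries lie above the control and IWP2 libraries, and in the lower row they lie below them except for Wls, where 48.8 TPM in IWP2_removed overlaps 41.9 TPM in IWP2.

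Enzymes past the split numbered 8, with medians of -0.62 from IWP2 and -0.92 from control, and 3 lay below all 4 libraries. Ddah1, which degrades inhibitors of nitric oxide synthase, was at 18.9 and 14.1 TPM in control, 14.3 and 11.9 in IWP2 and 9.38 and 6.77 in IWP2_removed. Kyat3, a kynurenine aminotransferase, was at 5.33 and 2.83, 5.33 and 7.12, and 2.36 and 2.48 TPM. The sialyltransferase St6galnac3 was the other member below all 4. Cth, cystathionine gamma-lyase, was at 20.8 and 36.2, 9.87 and 86.8, and 10.2 and 18.4 TPM, so that its difference from IWP2 was 0.04 in letter B and -2.21 in letter C. Acadm, the medium-chain acyl-CoA dehydrogenase, was at 55.5 and 64.5, 41.3 and 38.2, and 39.8 and 29.2 TPM. It was near the IWP2 level and below control. Hs2st1, Fpgt and Cryz, the other enzymes, had ranges that overlapped those of IWP2 or control.

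Of 11 members of membrane traffic, cytoskeleton, ubiquitin and folding past the split 8 lay below all 4 libraries. Rabggtb, the beta subunit of Rab geranylgeranyl transferase, was at 52.6 and 50.2 TPM in control, 44.3 and 41.3 in IWP2 and 21.9 and 23.8 in IWP2_removed, or 48.5%. Selenof, a selenoprotein of the endoplasmic reticulum, was at 61.6% of the 4 libraries. Odf2l, Lrrc40, Usp33, Dnajb4, Ctbs and Syde2 were the others, at 47.4% to 65.6%, and Nexn, an actin-binding protein, was at 101% of the 4 libraries. The 3 cell cycle and apoptosis members, Ssx2ip, Depdc1a and Sh3glb1, lay below all 4 as well, at 50.5%, 52.6% and 60.8%. Gbp2 and Gbp3, guanylate-binding proteins, and Ifi44, all interferon-induced, were low and spread widely between letters. Gbp2 was at 6.40 and 4.64 TPM in control, 5.97 and 1.15 in IWP2 and 1.49 and 0.892 in IWP2_removed, and overlapped IWP2 replicate 2.

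Among members past the split of at least 10 TPM without a predicted or pseudogene name, the annotated hairpin Mir186, at 157.54 Mb, had the lowest signed difference. Reads assigned to it gave 69.4 and 30.8 TPM in control, 30.4 and 25.9 in IWP2 and 31.5 and 0 in IWP2_removed. The value of IWP2_removed replicate 1 was within the range of the others.

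The difference was seen at all levels and was more frequent in protein-coding members. Before the split the median against IWP2 was 0.40 for 107 members at 2 to 10 TPM, 0.60 for 118 at 10 to 40 TPM and 0.53 for 71 at 40 TPM or more. Past the split it was -0.56 for 17, -0.73 for 23 and -0.33 for 14 members. Of 44 protein-coding members past the split 27 lay below all 4 libraries and 40 were lower in all letter pairs, against 1 and 1 of the 10 other members. Before it 122 of 254 protein-coding members and 8 of 42 others lay above all 4. Processed ribosomal copies such as Rpl36a-ps2, at 2160 and 2480 TPM in IWP2_removed against 2080 to 2810 TPM, and Gm10288, at 475 and 660 TPM against 488 to 787 TPM, were near the other lines. Their reads cannot be separated from those of the parent genes elsewhere.

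Counts of called members in the comparisons of IWP2_removed follow from how the interval was chosen and are no test of it. EdgeR's quasi-likelihood test called 2 of 270 members before the split higher than in IWP2 (0.0387% of all genes) and 0 of 50 past it lower (0.0221%). DESeq2 called 21 of the latter lower (1.15%), and 37 passed 0.05 before adjustment in edgeR (5.61%). Against control edgeR called 38 members before the split higher (0.669%) and 11 past it lower (0.586%). In an edgeR fit of the 6 libraries without Dkk1_KO, added after seeing the data, each of these counts at an adjusted p under 0.05 was 0.

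IWP2 against control gave no such blocks. Its median differences were -0.12 below and -0.20 beyond the split, against -0.13 over all genes, so that members were near the genome-wide shift on both sides. EdgeR called 5 members higher (1.27% of all genes) and 4 lower (0.917%), all of them before the split, and those outside the naming rule were named after their values were seen. Past the split edgeR called 0, with 1 higher and 2 lower at an unadjusted p under 0.05 (9.13% and 7.29% of all genes) and 0 with DESeq2 (3.32% and 2.26%). The higher ones were Rpl34, Celf3, Palmd, Mllt11 and Cisd2. The lower ones included the zinc and manganese transporter Slc39a8, the lactate transporter Slc16a1 and the predicted gene Gm43108. Palmd, a palmdelphin of the cell cortex, was at 1.84 and 1.53 TPM in control, 11.4 and 7.10 in IWP2 and 12.7 and 9.27 in IWP2_removed. Both IWP2 and IWP2_removed lay above control in it. The 5 and 4 calls became 0 and 0 without Dkk1_KO in the edgeR fit or with only the 2 groups compared. They became 23 and 29 without IWP2 replicate 1, 8 and 7 without IWP2 replicate 2, 1 and 1 without control replicate 1, and 0 and 1 without control replicate 2.

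Dkk1_KO against control, which the choice of the interval did not use, also gave no blocks. It shares the control libraries with the comparisons above. Median differences were -0.18 below and -0.08 beyond the split, against -0.16 over all genes, and their quartile ranges were as wide as those of all genes. EdgeR's quasi-likelihood test called 53 of 270 members before the split higher and 58 lower, or 19.6% and 21.5%, against 21.3% and 23.0% of all genes. Past it 10 of 50 were higher and 10 lower, or 20.0% each. These shares are close to the genome-wide ones on both sides. Calls with a 2-fold change were less frequent among members, at 10.0% higher and 11.5% lower before the split and 6.0% and 12.0% past it. Among all genes they were 13.3% and 16.3%. Members had a mean of at least 2 TPM, a limit not set on all genes tested. All 3 knockout libraries lay above both control libraries in 67 of 296 and 12 of 54 members (25.4% of all genes) and below them in 115 and 22 (40.7%). When the 3 knockout libraries entered the fit as their average, a choice made after the data were seen, edgeR called 20 members higher and 23 lower, beside 7.15% and 7.22% of all genes in that fit.

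**Figure D5:**
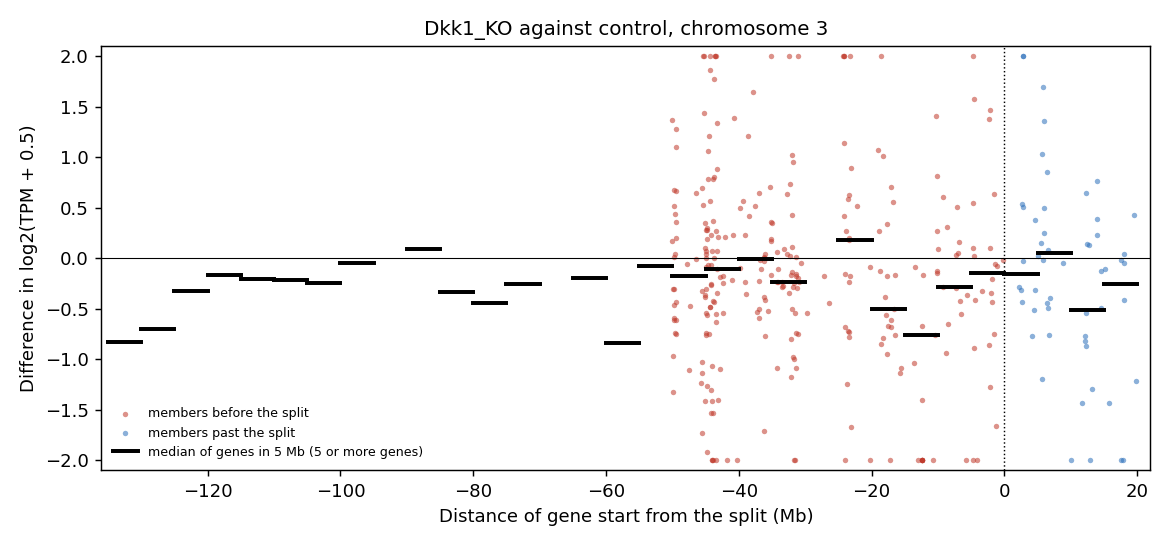
Difference in log2(TPM + 0.5) of Dkk1_KO from control for each member by the distance of its start from the split at 140 Mb, with medians of 5 Mb as black bars. Members scatter on both sides of 0 before and past the split, and 42 members beyond 2 log2 units are drawn at the edge.

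Among called members with a mean of at least 10 TPM over the 9 libraries, and with predicted genes and pseudogenes left out, the largest decreases in Dkk1_KO before the split were in Car14, Ank2, Sort1 and Celsr2. Car14, a membrane carbonic anhydrase, was at 25.0 and 33.4 TPM in control and 1.06, 0.292 and 0.71 TPM in Dkk1_KO (edgeR log2 fold change -6.69 ± 0.51, SE, adjusted p = 2.37e-05). Ank2, an ankyrin that anchors membrane proteins, was at 29.5 and 21.5 against 1.84, 2.40 and 1.72 TPM (edgeR -3.94 ± 0.14, adjusted p = 1.11e-06). Sort1, the sorting receptor sortilin, was at 16.7 and 17.6 against 1.08, 1.07 and 1.06 TPM (edgeR -3.79 ± 0.15, adjusted p = 1.3e-06). No knockout library came near a control library in these genes. Celsr2, a seven-pass cadherin of planar polarity, fell as well (edgeR -3.44 ± 0.27, adjusted p = 2.61e-05). All 4 calls held with the knockout libraries averaged.

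With the same limits, increases before the split were largest in S1pr1, Manba, Ecm1 and Dph5. The limit of 10 TPM is a mean that includes the Dkk1_KO libraries. A member that is low in control, such as S1pr1, can therefore reach it through its knockout values, and its place in this order is partly built in. S1pr1, a receptor for sphingosine-1-phosphate, was at 2.73 and 2.17 TPM in control and 27.4, 27.5 and 28.8 TPM in Dkk1_KO (edgeR log2 fold change 3.75 ± 0.30, SE, adjusted p = 3.02e-05). Manba, a lysosomal mannosidase, was at 19.1 and 19.4 against 53.1, 70.7 and 52.3 TPM (edgeR 2.25 ± 0.22, adjusted p = 9.14e-05). Ecm1, an extracellular matrix protein, was at 27.9 and 15.5 against 72.0, 79.9 and 79.3 TPM (edgeR 2.08 ± 0.41, adjusted p = 0.00388), a call that ended with the averaged knockout libraries (adjusted p = 0.0513). Dph5, an enzyme of diphthamide synthesis, rose too (edgeR 1.53 ± 0.21, adjusted p = 0.0005). The libraries did not overlap in any of them.

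Past the split Dkk1_KO and IWP2_removed were seen to differ from control in either the same or the opposite direction, depending on the gene. Wls was at 34.8, 34.4 and 35.8 TPM in Dkk1_KO, below both control libraries (edgeR -1.05 ± 0.22, SE, adjusted p = 0.00507), and with averaged knockout libraries the adjusted p was 0.121. Lmo4 at 26.2, 24.1 and 23.7 TPM (edgeR -0.63 ± 0.21, adjusted p = 0.0396) and Prkacb at 12.6, 12.6 and 13.1 TPM (edgeR -0.60 ± 0.14, adjusted p = 0.0085) also fell. Their calls ended with averaged knockout libraries (adjusted p = 0.316 and 0.19). Cth at 5.60, 5.85 and 5.14 TPM was below control (edgeR -2.35 ± 0.75, adjusted p = 0.0333), and this call ended as well (adjusted p = 0.273). Of 16 other Wnt pathway genes of the genome edgeR called 10 lower and 1 higher in Dkk1_KO against control, beside 23.0% and 21.3% of all genes. These 16 include Dkk1 itself, whose direction is set by the knockout, and Lef1, which was left out of the members.

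With the same limits, the largest increases past the split were in Ddah1, Acadm, Bcl10 and Gtf2b. Ddah1 was at 55.2, 52.5 and 53.6 TPM in Dkk1_KO against 18.9 and 14.1 in control (edgeR 1.95 ± 0.14, SE, adjusted p = 1.57e-05). Acadm was at 105, 107 and 94.4 TPM against 55.5 and 64.5 (edgeR 1.02 ± 0.13, adjusted p = 0.000443). Gtf2b at 31.3, 31.9 and 34.3 TPM (edgeR 0.75 ± 0.15, adjusted p = 0.00408) and Bcl10 at 23.3, 21.9 and 22.8 TPM (edgeR 0.76 ± 0.13, adjusted p = 0.00143) were above both control libraries. With averaged knockout libraries the calls of Gtf2b and Bcl10 ended (adjusted p = 0.102 and 0.0733). Ddah1, Gtf2b and Bcl10 were below all 4 IWP2 and control libraries in IWP2_removed and above both control libraries in Dkk1_KO. Dkk1_KO itself differed from IWP2_removed by a median of -0.57 before and 0.63 past the split, and from IWP2 by 0.00 and 0.08. The interval and the split were chosen on values of the IWP2_removed libraries, so the difference from IWP2_removed is a description as well.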

How the data were processed

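TruSeq stranded mRNA libraries were quantified with Salmon, and DESeq2 and edgeR are also named, without versions, per the submitters' processing notes. The aligner settings and transcriptome build are not given in the sources used here. The deposited tables of the authors hold TPM per transcript. They also hold estimated counts per transcript, which the authors' quantification splits between similar transcripts. Transcripts were assigned to genes with GENCODE vM21 (GRCm38): 133399 of 133618 matched by identifier, and the 219 others held at most 0.161% of the reads of a library. TPM and counts were summed per gene, and counts were rounded.

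Members were compared as means of log2(TPM + 0.5), whole and by the letter of the library, without a test. Counts were tested with edgeR 4.0.16 (R 4.3.3) by quasi-likelihood with all 9 libraries and 4 group means fitted together, which pools the spread. TMM scaling and filterByExpr left 18096 genes, of which 320 were members. A gene was called at a Benjamini-Hochberg adjusted p under 0.05 over all genes tested. The quasi-likelihood test gives no SE of its own. The SE printed with an edgeR log2 fold change is the absolute fold change divided by the square root of its F statistic. The pipeline was tested on simulated data.

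The members and lists were chosen with earlier results of these data known. Named members were, by rule, the 4 nearest the split on each side, those with the 5 highest and 5 lowest signed differences on each side (mean of at least 10 TPM, no predicted or pseudogene name), up to 4 higher and 4 lower in Dkk1_KO per side, all list members past the split, the 3 with the highest TPM of each list before it, and those at the limits. Tars2, Tdrkh, Them4, Mrpl9, Riiad1, Sema6c, Sprr2a2, Sprr2k, the pseudogenes and the called members outside this rule were named after their values were seen. So were Rnu1b1 and Gm25890. Alternatives were other pseudocounts, TPM limits, count scalings (DESeq2 1.42.0 size factors), splits, protein-coding genes, blocks, no count filter, only the 2 groups compared, the DESeq2 Wald test and each library left out. Promoters and mature microRNAs came from RefSeq (GRCm38.p6). SB431542 is named in the treatment protocol and in no group's label. Some results are not reported here.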

Additional observations from a re-analysis of the deposited data

How the results depend on the processing

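The median differences of IWP2_removed kept their direction on both sides of the split under every alternative run, at -0.84 to -0.37 past it and 0.40 to 0.73 before it against IWP2, and at -1.05 to -0.60 and 0.26 to 0.55 against control. With the split 5 Mb earlier the medians past it were -0.43 against IWP2 and -0.60 against control. TMM-scaled CPM, CPM on DESeq2 size factors and centring on genes outside the interval (the last chosen after seeing the data) gave -0.70, -0.72 and -0.70 against control. TPM as deposited puts the median of all genes at -0.10 to -0.16 against control, so differences of that size follow the scaling. In that order IWP2 against control moved to -0.01, -0.01 and -0.04 past the split and to -0.01, -0.01 and, reversed, 0.04 before it. Dkk1_KO against control was reversed past the split at 0.12, 0.11 and 0.04, and before it at 0.01 and 0.00, with -0.06 after centring. IWP2 against control past the split was -0.26 and -0.15 with TPM limits of 1 and 5, -0.23 with protein-coding genes, and -0.11 and -0.23 with splits 5 Mb earlier and 5 Mb later.

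Counts of called members moved most. For IWP2_removed against IWP2 (2 higher, 0 lower) there were 64 and 16 without a count filter, 68 and 22 with DESeq2, 0 higher with only the 2 groups compared, with a letter block and without Dkk1_KO, and 1 lower with DESeq2 size factors. Against control (38 and 11) there were 80 and 24, 84 and 27, 1 and 0 with only 2 groups, 0 and 0 without Dkk1_KO, and 6 lower with a letter block. For IWP2 against control (5 and 4) there were 8 and 16 without a filter, 0 and 0 with 2 groups or without Dkk1_KO, and 11 lower with DESeq2. For Dkk1_KO averaged to 1 there were 20 and 23 (63 and 68).

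With the replicate number as a block, IWP2_removed gave 0 higher against IWP2 and 19 higher and 4 lower against control. Deviations of same-numbered libraries correlated at 0.302 to 0.461 among control, IWP2 and IWP2_removed, where number and letter coincide, and at -0.054 to -0.019 with Dkk1_KO. With 2 such pairs and no label that ties a number to a shared batch, the libraries were not taken as paired. The adjusted p of Lmo4 in Dkk1_KO became 0.0676 with this block.

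With each library left out, medians past and before the split ran from -0.84 to -0.37 and 0.40 to 0.73 (IWP2_removed against IWP2), -1.05 to -0.61 and 0.26 to 0.50 (against control), -0.44 to -0.01 and -0.34 to -0.02 (IWP2 against control) and -0.32 to 0.08 and -0.30 to -0.06 (Dkk1_KO against control). Higher and lower calls ran from 0 to 64 and 0 to 17, 0 to 1 and 0 to 1, 0 to 23 and 1 to 29, and 50 to 53 and 47 to 56. Cth lost its call in 5 of these (0.0531 to 0.195), and Lmo4 (0.0825 to 0.149) and Prkacb (0.0667) in some. The cause was not tested.

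Each line has 2 or 3 libraries of unstated origin, and edgeR's pooled spread includes the closely similar Dkk1_KO libraries. Of the 350 members 30 were not tested by edgeR because their counts were too low. Values of members near the limit of 2 TPM, and of short genes such as Mir7013, rest on few reads.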
